A study of Arabidopsis thaliana with 8 samples.

Results

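*DFR*, *UF3GT* and AT4G14090 encode enzymes of the last steps of anthocyanin biosynthesis, and each is read on the Affymetrix ATH1 array by 1 probe set that the platform annotation pairs with that gene alone. They are 3 of 13286 genes with a probe set of their own, on an array with 22746 non-control probe sets. The probe sets are 249215_at for *DFR* (AT5G42800), 248185_at for *UF3GT* (AT5G54060) and 245624_at for AT4G14090. They were chosen by locus and not by a measured value, although earlier results from these arrays were known when the genes were chosen.

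Anthocyanins are made from phenylalanine through the phenylpropanoid and flavonoid pathways. Dihydroflavonol reductase, the product of *DFR*, commits dihydroflavonols to the anthocyanin and proanthocyanidin branch, and glycosyltransferases then decorate the anthocyanidin and make it soluble. *UF3GT*, also named *UGT79B1*, encodes a glycosyltransferase that extends the sugar of anthocyanidin glucosides with xylose, and AT4G14090 encodes a glucosyltransferase that adds glucose to another position of the anthocyanin ring. In Arabidopsis seedlings the late genes are known to be switched on together by a complex of MYB, bHLH and WD40 proteins, which jasmonate signaling releases from JAZ repressors. The bZIP factor HY5 is a known activator of anthocyanin genes in light.

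RNA came from whole seedlings, 4 days old. The genotypes were *Ler*, the wild type, and *hy5-1*, which carries a mutation in *HY5*. Seedlings were kept in darkness or under continuous far-red (FR) light (fluence rate 1.5 μmol m-2 s-1), on germination medium with 0 or 50 μM methyl jasmonate (MeJA), the methyl ester of jasmonic acid. Each of the 8 combinations of genotype, light and MeJA was measured on 1 array, so no ratio between 2 arrays has a replicate check, and precision is limited by this number of arrays. All 8 groups share the *Ler* background, and *hy5-1* is represented by that allele alone. The label *hy5-1* was not checked on *HY5* itself, which had no probe set paired with it alone in the annotation used here.

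The deposited values are log values, taken here as base 2, and within a light every probe set has a median of 0 over its 4 arrays. Values were therefore compared only between arrays of the same light, and a level under FR light was never set against a level in darkness. Because the median of 4 values is the mean of the middle 2, the middle 2 arrays of each light carry equal values of opposite sign by construction. A ratio was called at 2-fold or more, or at 0.5-fold or less, which are the thresholds in the study's methods and correspond to 1 and -1 on the log2 scale. None of the 32 ratios of 4 measured reference genes reached 2-fold, and these ratios ran from -0.29 to 0.68. The median over all probe sets was between -0.09 and 0.05 in each of the 8 comparisons. No value of *DFR*, *UF3GT* or AT4G14090 was tied within a light.

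Under FR light, *DFR* and *UF3GT* had higher transcript levels with MeJA in both genotypes, by 11.8-fold to 25.3-fold, whereas AT4G14090 reached 2-fold with MeJA in *hy5-1* and not in *Ler*. For *DFR*, the centred log2 values under FR light were -1.97 in untreated *Ler*, -2.40 in untreated *hy5-1*, 2.69 in treated *Ler* and 1.97 in treated *hy5-1*. Both treated arrays lay above both untreated arrays, an order that 22.0% of all probe sets showed under FR light. The log2 ratio of treated to untreated seedlings was 4.66 in *Ler*, a 25.3-fold difference, and 84 of the 22746 probe sets had a ratio at least as high. In *hy5-1* the ratio was 4.37, or 20.7-fold, and 104 probe sets were at least as high. At 2-fold, 12.8% of probe sets were up-regulated in *Ler* and 11.2% in *hy5-1*.

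For *UF3GT* both treated FR arrays likewise lay above both untreated ones, with log2 values of -1.78 in untreated *Ler*, -2.00 in untreated *hy5-1*, 1.78 in treated *Ler* and 2.02 in treated *hy5-1*. Its log2 ratio was 3.56 in *Ler*, an 11.8-fold difference, and 4.02 in *hy5-1*, a 16.2-fold difference. With FR light, *DFR* and *UF3GT* thus passed 2-fold upward in *Ler* and in *hy5-1*, as did 5.26% of all probe sets.

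AT4G14090 departed from this pattern. Its FR values were 0.16 in untreated *Ler*, -0.18 in untreated *hy5-1*, -0.16 in treated *Ler* and 2.23 in treated *hy5-1*, so that 1 array stood above 3 arrays that lay close together. The log2 ratio with MeJA was -0.31 in *Ler*, under 2-fold, and 2.41 in *hy5-1*, or 5.33-fold. The *hy5-1* ratio therefore rests on a single array. Whole seedlings were used, so for this and every other ratio fewer cells that express a gene and less RNA per cell cannot be told apart.

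**Figure D1:**
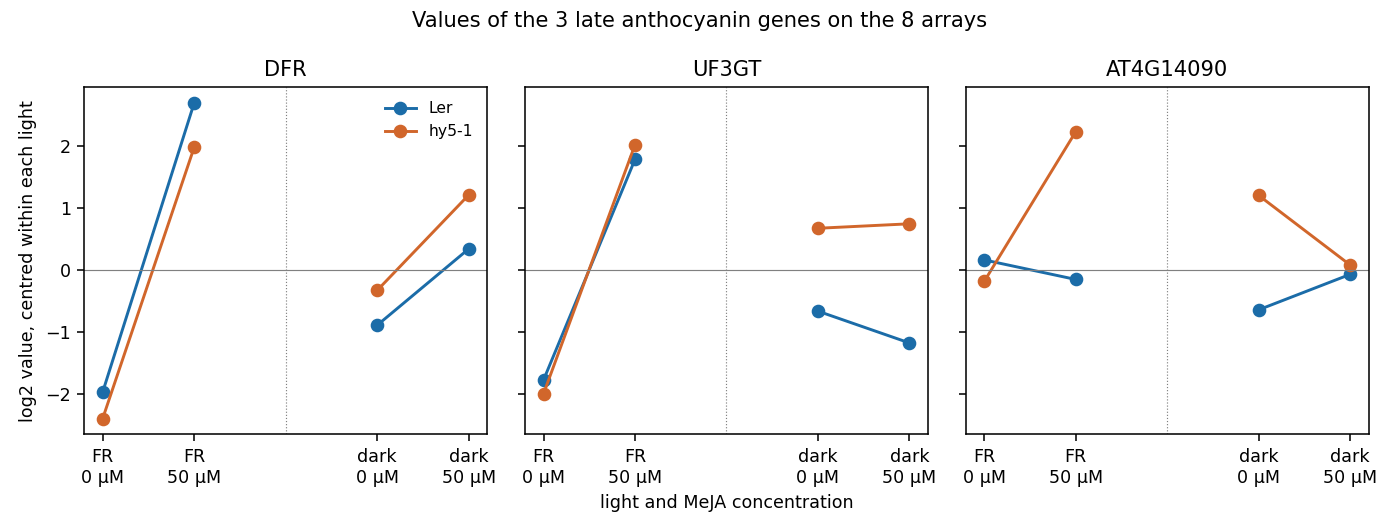
Centred log2 values (vertical axis) of *DFR*, *UF3GT* and AT4G14090 on the 8 arrays, 1 point per array, with lines joining the untreated and treated array of one genotype within a light. Values are centred separately in FR light and darkness, so heights are comparable only within a light. *DFR* and *UF3GT* climb steeply with MeJA under FR light in both genotypes, by 3.56 to 4.66, while AT4G14090 climbs by 2.41 in *hy5-1* and drops by 0.31 in *Ler*.

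In darkness the MeJA ratios of the 3 genes ran from -1.12 to 1.54, and only *DFR* was higher with MeJA at 2-fold in both genotypes, as were 4.95% of probe sets. The dark values of *DFR* were -0.90 in untreated *Ler*, -0.33 in untreated *hy5-1*, 0.33 in treated *Ler* and 1.20 in treated *hy5-1*. The treated arrays again lay above the untreated ones, as they did for 22.7% of probe sets in darkness. The log2 ratio of *DFR* was 1.23 in *Ler*, or 2.35-fold, and 1.54 in *hy5-1*, or 2.90-fold. In darkness 11.2% of probe sets were up-regulated in *Ler* and 12.2% in *hy5-1* at 2-fold, and 2073 and 1711 probe sets had ratios at least as high as those of *DFR*. *DFR* was up-regulated in all 4 pairs of treated and untreated arrays, like 2.42% of all probe sets.

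For *UF3GT*, the dark arrays separated by genotype and not by MeJA, with values of -0.67 and -1.18 in untreated and treated *Ler* and of 0.67 and 0.74 in untreated and treated *hy5-1*. Its MeJA ratio was -0.51 in *Ler* and 0.07 in *hy5-1*, both under 2-fold. A MeJA ratio past 2-fold upward in *Ler* and *hy5-1* under FR light, with changes under 2-fold in both genotypes in darkness, was found for 142 probe sets, or 0.624% of all. *UF3GT* was 1 of them, and *DFR* and AT4G14090 were not.

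AT4G14090 had dark values of -0.65 in untreated *Ler*, 1.20 in untreated *hy5-1*, -0.07 in treated *Ler* and 0.07 in treated *hy5-1*. The highest array in darkness was thus untreated *hy5-1*, whereas under FR light it was treated *hy5-1*. The MeJA ratio was 0.57 in *Ler* and -1.12 in *hy5-1*, where 16.1% of probe sets were down-regulated at 2-fold. After quantile normalization the *hy5-1* ratio was -0.94 and no longer reached 2-fold.

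**Figure D2:**
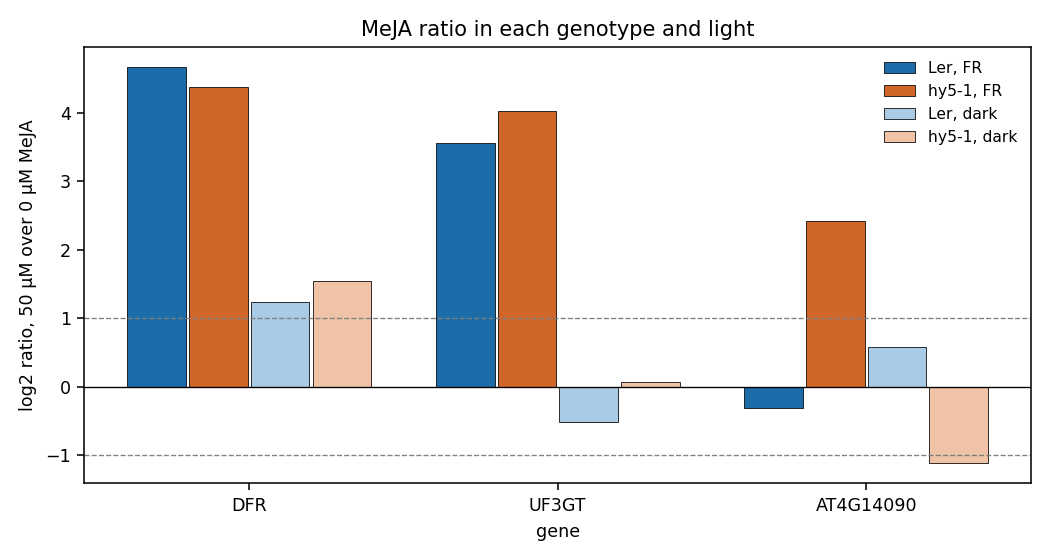
Log2 ratio of 50 to 0 μM MeJA (vertical axis) for each gene, 1 bar per pair of arrays, with dashed lines at 2-fold and 0.5-fold. The FR bars of *DFR* and *UF3GT* stand at 3.56 to 4.66 and their dark bars at -0.51 to 1.54, and AT4G14090 has a bar below 0 and one above 0 in each light, between -1.12 and 2.41. Bars are single ratios without error bars, since each condition had 1 array.

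The MeJA ratios of *DFR* and *UF3GT* were larger under FR light than in darkness in each genotype. The log2 ratio of *UF3GT* was higher under FR light by 4.07 in *Ler* and by 3.94 in *hy5-1*, which is 16.8-fold and 15.4-fold on the linear scale. For *DFR* the difference was 3.43 in *Ler*, or 10.8-fold, and 2.84 in *hy5-1*, or 7.14-fold. Differences of at least 2-fold in both genotypes in this direction were found for 1162 probe sets, 5.11% of all, against 764, or 3.36%, in the opposite direction. AT4G14090 was not among either, since its MeJA ratio was lower under FR light by 0.89 in *Ler* and higher by 3.54 in *hy5-1*.

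Averaged over both genotypes, the MeJA ratio of *UF3GT* was higher under FR light than in darkness by 4.01 (standard error 0.37, 2 pairs of arrays per light), and 150 probe sets, or 0.659%, had a mean difference at least as high. That of *DFR* was higher by 3.13 (standard error 0.29), with 379 probe sets at least as high. For AT4G14090 the mean difference was 1.32 with a standard error of 1.23. These errors come from a linear model in limma, with 2 residual degrees of freedom, in which the *Ler* and *hy5-1* ratios of one light stand as its repeats, so any difference between the genotypes counts as error. In that model no probe set passed an adjusted p of 0.05 for the light difference (0% of 22746), and 1679 (7.38%) had an unadjusted p under 0.05. The adjusted p was 0.42 for both *DFR* and *UF3GT*, with unadjusted values of 0.00083 and 0.0008, and 0.80 for AT4G14090. The light difference of the MeJA response was therefore not called for any of the 3 genes, which does not show that the responses were alike. It had the same sign in both genotypes for *DFR* and *UF3GT*.

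**Figure D3:**
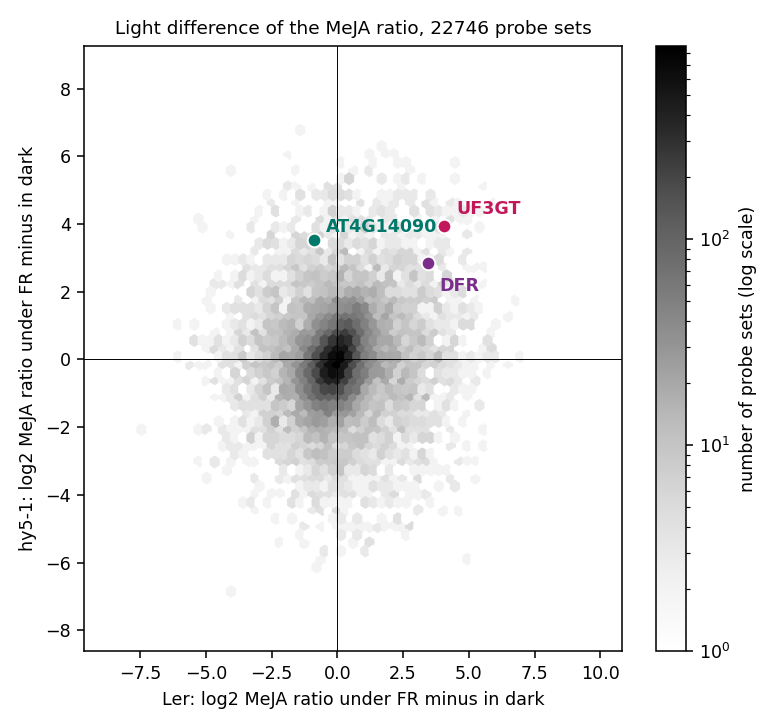
Difference between the log2 MeJA ratio under FR light and that in darkness, in *Ler* (horizontal axis) and in *hy5-1* (vertical axis), for 22746 probe sets binned in hexagons shaded by number on a log scale. *UF3GT* at 4.07 and 3.94 and *DFR* at 3.43 and 2.84 lie in the upper right quadrant, while AT4G14090 lies at -0.89 and 3.54.

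Within FR light alone, the mean log2 MeJA effect over both genotypes was 4.52 for *DFR* (standard error 0.21), 3.79 for *UF3GT* (standard error 0.26) and 1.05 for AT4G14090 (standard error 0.87). The adjusted p values from limma were 0.072, 0.084 and 0.59, so none passed, and no probe set did, with 3861 (17.0%) at an unadjusted p under 0.05. With a variance trend in the same model, 341 probe sets passed within FR light, among them *DFR* at an adjusted p of 0.023 and *UF3GT* at 0.028, and 584 passed within darkness, where *DFR* had an adjusted p of 0.059. Under the other alternatives neither gene passed within FR light, and with limma the adjusted p over all alternatives ran from 0.023 to 0.41 for *DFR* and from 0.028 to 0.41 for *UF3GT*. Within darkness the mean effect was 1.38 for *DFR* (standard error 0.21), -0.22 for *UF3GT* (standard error 0.26) and -0.28 for AT4G14090 (standard error 0.87), with adjusted p values of 0.12, 0.69 and 0.89. Without the variance trend no probe set passed within darkness, and 4323 (19.0%) had an unadjusted p under 0.05. Over all 4 pairs, a limma model that called 4.37% of probe sets (23.8% at an unadjusted p under 0.05) gave *DFR* a mean effect of 2.95 (standard error 0.74, adjusted p = 0.11), positive in 4 of 4 pairs. The corresponding mean was 1.78 for *UF3GT* (standard error 0.95, adjusted p = 0.33), positive in 3 of 4 pairs, and 0.39 for AT4G14090 (standard error 0.62, adjusted p = 0.75), positive in 2 of 4 pairs.

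*hy5-1* was compared with *Ler* within each light. Under FR light only AT4G14090 with MeJA reached 2-fold, which rests on 1 array, and no genotype effect passed in limma. *DFR* was slightly lower in *hy5-1* than in *Ler* under FR light, with log2 ratios of -0.43 without MeJA and -0.71 with MeJA, neither of which reached 2-fold. *UF3GT* had ratios of -0.22 and 0.24, which are within the range of the reference genes. AT4G14090 had a ratio of -0.34 without MeJA, and with MeJA it was 5.23-fold higher in *hy5-1*, at a log2 ratio of 2.39. For AT4G14090 the *hy5-1* arrays did not both lie above both *Ler* arrays under FR light, an order found for 15.7% of probe sets. For *DFR* and *UF3GT* that order could not occur, since both treated arrays lay above both untreated ones. At 2-fold, 8.92% of probe sets were higher and 9.09% lower in treated *hy5-1* than in treated *Ler* under FR light, and 9.19% were higher and 6.85% lower without MeJA.

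In darkness the log2 genotype ratios of these genes ran from 0.15 to 1.92. The medians over all probe sets were 0.01 without MeJA and -0.003 with MeJA. *UF3GT* was higher in *hy5-1* by 2.53-fold without MeJA and by 3.79-fold with MeJA, at log2 ratios of 1.34 and 1.92, so that both *hy5-1* arrays lay above both *Ler* arrays, as for 11.9% of probe sets. A 2-fold higher level in *hy5-1* in both dark comparisons was found for 551 probe sets, 2.42% of all. The dark ratios of *DFR* were 0.56 and 0.87, under 2-fold. AT4G14090 was 3.59-fold higher in *hy5-1* without MeJA, at a log2 ratio of 1.84, and had a ratio of 0.15 with MeJA. The ratio without MeJA rests on single arrays at 1.20 in *hy5-1* and -0.65 in *Ler*, the highest and lowest dark values of this gene. The background in untreated dark seedlings was 9.64% of probe sets higher and 7.68% lower in *hy5-1*, and in treated ones 9% higher and 8.06% lower.

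**Figure D4:**
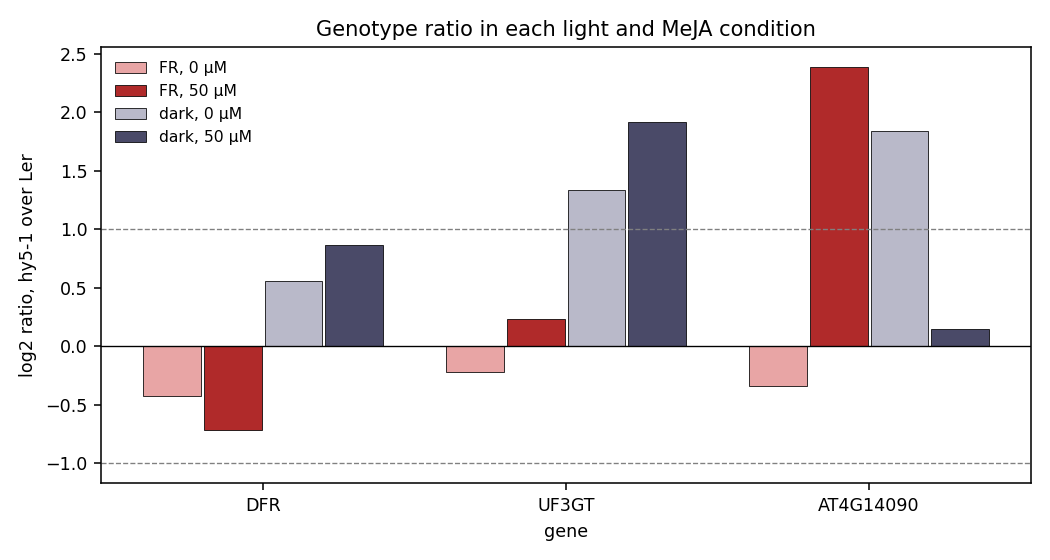
Log2 ratio of *hy5-1* to *Ler* (vertical axis) for each gene in the 4 combinations of light and MeJA, 1 bar per pair of arrays, with dashed lines at 2-fold and 0.5-fold. The FR bars of *DFR* lie below 0 and its dark bars above 0, the dark bars of *UF3GT* reach 1.34 and 1.92, and AT4G14090 has its 2 high bars at 2.39 under FR light with MeJA and 1.84 in darkness without it.

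Averaged over both MeJA conditions, the genotype effect of *DFR* was -0.57 within FR light and 0.72 within darkness (standard error 0.21 each), and that of *UF3GT* was 0.01 and 1.63 (standard error 0.26 each). The sign of the *UF3GT* effect within FR light turned to -0.03 after median scaling and -0.19 after quantile normalization, so it has no settled direction. For AT4G14090 the effects were 1.02 and 1.00 (standard error 0.87 each). None passed in limma, the smallest adjusted p being 0.66 for *UF3GT* within darkness, and no probe set passed within either light, with 1272 (5.59%) under FR light and 1198 (5.27%) in darkness at an unadjusted p under 0.05. The difference between the lights was -1.29 for *DFR* (standard error 0.29, adjusted p = 0.94), -1.62 for *UF3GT* (standard error 0.37, adjusted p = 0.94) and 0.03 for AT4G14090 (standard error 1.23, adjusted p = 1.00). For *DFR* the genotype ratio was below 0 in both FR pairs and above 0 in both dark pairs, an order that 4.32% of probe sets shared, against 5.33% with the opposite order. No probe set was called for this difference either (1022, or 4.49%, at an unadjusted p under 0.05). The same 8 values enter the MeJA and the genotype models, and within a light the error of both is set by the same difference between ratios.

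How far the MeJA ratio itself depended on genotype separated AT4G14090 from the other two genes. The MeJA ratio in *hy5-1* minus that in *Ler* was -0.29 under FR light and 0.31 in darkness for *DFR*, and 0.46 and 0.58 for *UF3GT*. For AT4G14090 it was 2.73 under FR light and -1.69 in darkness. A difference of at least 2-fold upward under FR light combined with one of at least 2-fold downward in darkness was found for 673 probe sets, or 2.96%. Each of these differences rests on 4 single arrays and has no test. Across the 8 arrays, whose values are centred within each light, Pearson's r was 0.90 between *DFR* and *UF3GT*, 0.57 between *UF3GT* and AT4G14090 and 0.35 between *DFR* and AT4G14090, as a description of arrays that share their conditions.

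Of 48 listed genes of phenylpropanoid, flavonoid and anthocyanin steps and their regulators, 9 had a probe set of their own, 6 of them besides the 3 late genes. Here and below, a gene counts as measured only where the annotation used here pairs a probe set with it alone. That annotation names no gene for 8730 probe sets, so a listed gene that is not counted may still be read by the array. Among 5 measured of 12 late genes, MeJA was followed by a 2-fold higher level for 2 in *Ler* and 3 in *hy5-1* under FR light and for 2 in *Ler* and 1 in *hy5-1* in darkness, beside 12.8%, 11.2%, 11.2% and 12.2% of all probe sets. Of these 5 genes 3 are *DFR*, *UF3GT* and AT4G14090 themselves, and the only such ratio of another gene was that of *AT5MAT* in dark *Ler*. The only one of the 5 genes at 0.5-fold or less with MeJA was AT4G14090 in dark *hy5-1*. The list's median log2 ratio was 0.42 in *Ler* and 2.41 in *hy5-1* under FR light and 0.57 and 0.07 in darkness, beside medians between -0.09 and -0.06 over all probe sets. With 5 genes the median is the ratio of a single gene, namely *UGT78D2* for 0.42, AT4G14090 for 2.41, which rests on 1 array, and for 0.57, and *UF3GT* for 0.07. *UGT78D2*, the glucosyltransferase that attaches the first glucose to anthocyanidins and flavonols, stayed under 2-fold in all 8 comparisons, with MeJA ratios from -0.42 to 0.42. *AT5MAT*, which encodes the malonyltransferase that acts on the anthocyanin glucose, had a MeJA ratio of 1.87 in dark *Ler* and ratios between -0.05 and 0.44 in the other 3 pairs. Its *hy5-1* to *Ler* ratio was -1.64 in darkness with MeJA, past 0.5-fold and opposite in sign to those of the 3 late genes, and between 0.28 and 0.84 in the other 3 comparisons.

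Among 3 measured of 8 genes of early flavonoid and flavonol steps, *UGT78D1*, a flavonol rhamnosyltransferase gene, had the highest MeJA ratios, at 1.93 in *Ler* and 3.21 in *hy5-1* under FR light and at 4.09 and 5.49 in darkness. Its MeJA ratio was thus lower under FR light than in darkness, by 2.22 on average (standard error 0.75, adjusted p = 0.67 in limma), opposite in sign to *DFR* and *UF3GT*. The flavonol arabinosyltransferase gene *UGT78D3* stayed under 2-fold with MeJA in all 4 pairs. *CHIL*, which encodes a chalcone isomerase-like protein that aids flavonoid synthesis, was lower in *hy5-1* than in *Ler* under FR light, at log2 ratios of -2.82 without MeJA and -3.56 with MeJA, and higher in darkness, at 0.97 and 2.64. Its genotype ratio had the same order of signs as that of *DFR*, at a larger size. The difference of its genotype effect between the lights was -5.00 (standard error 0.73, adjusted p = 0.68 in limma). Of 13 listed activators, only *HYH*, the homolog of *HY5*, had a probe set that this annotation pairs with it alone. *HYH* was lower in *hy5-1* than in *Ler* in each condition, at -0.92 and -1.30 under FR light and -5.98 and -5.26 in darkness. None of the 8 listed phenylpropanoid genes or the 7 listed repressors had a probe set that this annotation pairs with it alone. Their levels were not read here, which does not show that the array lacks them.

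**Figure D5:**
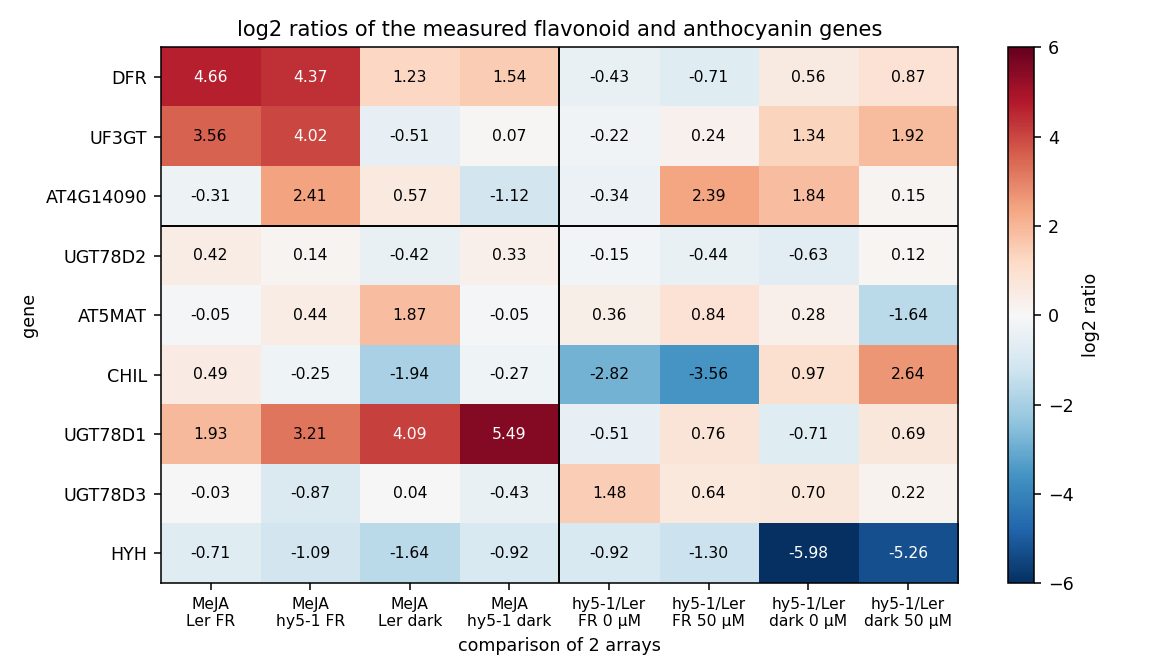
Log2 ratios of the 9 measured genes of flavonoid and anthocyanin biosynthesis and its regulators (rows) in 8 comparisons of 2 arrays (columns), coloured from blue (lower) to red (higher) and printed in each cell. Red FR cells with paler dark cells in the MeJA columns are seen for *DFR* and *UF3GT* (3.56 to 4.66 against -0.51 to 1.54), whereas *UGT78D1* is deepest in darkness at 5.49.

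Markers of other tissues that whole seedlings could hold were few. Among 7 listed seed coat genes, only *BAN*, the anthocyanidin reductase gene of proanthocyanidin synthesis, was measured. Its MeJA ratios were 2.89 in *Ler* and -0.16 in *hy5-1* under FR light and -0.83 and 0.14 in darkness. Among 4 listed root genes, only the root hair expansin gene *EXPA7* was measured, and its MeJA ratio was 1.46 in *Ler* and 1.86 in *hy5-1* under FR light and -4.39 and -3.27 in darkness. The MeJA ratio of *EXPA7* was thus higher under FR light, as were those of *DFR* and *UF3GT*, with a mean difference of 5.49 (standard error 0.51, adjusted p = 0.42 in limma), and its part in their result was not tested. None of the 5 listed green cotyledon genes or the 6 listed seed maturation genes had a probe set that the annotation pairs with it alone. That gap lies in the annotation used here and does not show that the array lacks these genes.

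The genes most like the mean of *DFR*, *UF3GT* and AT4G14090 were sought by Pearson's r over the 8 arrays among 3204 probe sets of single genes that spanned at least 2 log2 units under FR light. The highest was AT2G47780 (r of 0.97), with MeJA ratios of 2.33 in *Ler* and 2.70 in *hy5-1* under FR light and of 0.29 and -0.09 in darkness. It was followed by AT5G20940 and AT1G77405, both at 0.96 or above, and by AT4G23680 and AT1G28600, both at 0.94. All 5 had MeJA ratios between 1.76 and 3.37 under FR light and between -0.16 and 1.26 in darkness, a contrast that follows from how they were chosen and is no finding about them. In all, 13 probe sets reached an r of 0.9 and 86 an r of 0.8, and the arrays share their conditions, so that these values describe likeness and carry no p.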

How the data were processed

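Total RNA from whole Arabidopsis seedlings was hybridized to 8 ATH1 arrays, 1 per condition, and arrays were assigned to groups by their labels. The deposited values were made by the authors on a log scale and are treated here as log2. The submitters' processing notes name MAS5, and the study's methods name GeneSpring GX, with no version of either; the sources used here do not give the log base or the scaling between arrays. Base 2 was chosen, since it gave numbers of 2-fold probe sets nearest to those in the study, and the widest within-light range, 13.6 log units, would be a 779519-fold range in base e. Each probe set has a median of 0 within each light (to 5e-07), which removes levels, so no filter on dim signals was possible. The table holds 22810 probe sets, and 64 controls were left out. GEO's platform annotation was updated to RefSeq symbols through gene identifiers. It pairs 13436 probe sets with 1 gene and 503 with several, which were not named; 77 had no locus, and the annotation used here names no gene for the remaining 8730. Promoter motifs were not analysed here.

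Log2 ratios within a light were fitted in limma 3.58.1 (R 4.3.3) with 1 coefficient per light (2 residual degrees of freedom), or as a mean over 4 pairs (3 residual degrees of freedom); variances were moderated by empirical Bayes, and p-values were adjusted by Benjamini-Hochberg over 22746 probe sets. P-values measure the spread between pairs of single arrays, which are not biological replicates of a condition. Alternatives were quantile normalization, median scaling, a robust prior, a variance trend, the other factor as a covariate, leaving out each pair, probe sets of 1 gene and a 4-fold threshold. Members and lists were chosen with earlier results of these data known. Named genes are the 3 members, every measured gene of the pathway and marker lists, and the 5 genes most like the mean of the members.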

Additional observations from a re-analysis of the deposited data

Results flagged for a closer look

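Signs were compared for the 11 measured genes of the pathway and marker lists, which include *DFR*, *UF3GT* and AT4G14090. The 5 genes most like the mean of these 3 were not checked. Among 44 comparisons, 4 showed ratios of one sign in both pairs of one condition and of the opposite sign in both pairs of the other. This is 9.09% of the comparisons, near the 10.4% found over all probe sets, so the number is no result about these genes. Each was tested in limma where the model holds the contrast, and none passed.

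For *DFR*, the *hy5-1* to *Ler* log2 ratios were -0.43 and -0.71 under FR light and 0.56 and 0.87 in darkness, a mean difference of -1.29 (adjusted p = 0.94 in limma). For *CHIL*, the ratios were -2.82 and -3.56 under FR light and 0.97 and 2.64 in darkness, a mean difference of -5.00 (adjusted p = 0.68 in limma). For *UGT78D1*, the *hy5-1* to *Ler* ratios were -0.51 and -0.71 without MeJA and 0.76 and 0.69 with MeJA under FR light and in darkness, respectively, a mean difference of -1.34 that was not tested. For *EXPA7*, the MeJA ratios were 1.46 and 1.86 under FR light and -4.39 and -3.27 in darkness, a mean difference of 5.49 (adjusted p = 0.42 in limma).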

How the results depend on the processing

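Of 48 recomputed ratios of the 3 genes under quantile normalization and median scaling, 47 kept their sign and their side of 2-fold, the exception being the MeJA ratio of AT4G14090 in dark *hy5-1* at -0.94 after quantile normalization. All fits used ratios within pairs of arrays of one light; with the replicate number as a block, no paired analysis was possible because each condition has only 1 array. The variance trend, which was fitted on the mean of centred values and so on no level, brought the MeJA effects within FR light of *DFR* (4.52) and *UF3GT* (3.79) past the threshold and raised the calls within FR light from 0 to 341 and within darkness from 0 to 584; the cause was not tested. The genotype effect of *UF3GT* within FR light was reversed to -0.19 by quantile normalization and -0.026 by median scaling, and the light difference of the genotype effect of AT4G14090 was reversed to -0.072 by quantile normalization. At 4-fold, the percentage of probe sets called with MeJA was 10.2 in *Ler* and 9.31 in *hy5-1* under FR light and 10.3 and 11.0 in darkness. For genotype it was 6.95 without and 7.53 with MeJA under FR light, and 7.46 and 7.4 in darkness. Among probe sets of 1 gene, 2.29% were called for MeJA over 4 pairs, against 4.37% of all.

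With 1 pair of arrays left out, the calls for MeJA over 4 pairs fell from 995 to between 0 (without any 1 of the *Ler* dark, *hy5-1* dark or *hy5-1* FR pairs) and 34 (without the *Ler* FR pair), with fewer residual degrees of freedom, and the other fits stayed at 0. The mean MeJA effect over 4 pairs then lay between 2.38 and 3.52 for *DFR*, 1.04 and 2.55 for *UF3GT* and -0.29 and 0.89 for AT4G14090. The FR minus dark difference of the MeJA effect lay between 2.98 and 3.29 for *DFR*, 3.71 and 4.30 for *UF3GT* and -0.039 (without the *hy5-1* FR pair) and 2.69 for AT4G14090. Within FR light the MeJA effect of AT4G14090 ran from -0.31, again without that pair, to 2.41, and within darkness from -1.12 to 0.57, without the *hy5-1* dark pair. *UF3GT* within darkness ran from -0.51 to 0.072, without the *Ler* dark pair. The genotype effect within FR light ran from -0.34 (without the FR pair with MeJA) to 2.39 for AT4G14090 and from -0.22 to 0.24 for *UF3GT*. Within darkness the genotype effect of AT4G14090 ran from 0.15 (without the dark pair without MeJA) to 1.84. The FR minus dark difference of the genotype effect ran from -1.34 to 1.39 for AT4G14090.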
